A study of Homo sapiens with 24 samples.

Results

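The eotaxins are 3 chemokines, CCL26 (eotaxin-3), CCL24 (eotaxin-2) and CCL11 (eotaxin-1). Their genes were taken by symbol from a table of read counts, in which they were 3 of 36468 entries, and each symbol had 1 entry. The table covered 24 RNA sequencing libraries from sensory neuron cultures differentiated from H9WAO9, a wild-type human pluripotent stem cell line. The cells passed through vagal neural crest spheroids and were matured for some weeks before treatment, and all 24 libraries came from this 1 line, so that other genetic backgrounds were not sampled. There were 4 groups of 6 libraries, and each group had 1 library in each of 6 batches as the labels number them. Vehicle cultures received 0.1% bovine serum albumin in PBS. The TGF-β cultures received 2 ng/ml of that cytokine, and the IL-4+IL-13 cultures 10 ng/ml IL-4 with 3 ng/ml IL-13, in the same solution and for 5 days. A further group was labelled IL-6, for which the labels give neither dose nor duration. The cultures were mixed, with neurons beside non-neuronal cells, so that in these bulk libraries more cells of a type and more RNA per cell cannot be told apart.

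Eotaxins draw eosinophils into tissue by binding CCR3, a receptor that eosinophils and basophils carry on their surface. IL-4 and IL-13 act through a receptor made of IL4R with IL13RA1, and IL-4 also through one made of IL4R with IL2RG. Janus kinases bound to these chains phosphorylate the transcription factor STAT6, and STAT6 then binds palindromic sites in DNA. CCL26 is known as a gene that IL-4 and IL-13 raise through STAT6 in airway epithelium, endothelium and fibroblasts, and it is a marker of type 2 inflammation in asthma.

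CCL26 and CCL24 lie side by side on chromosome 7 (GRCh38.p14, CCL26 at positions 75769524 to 75791597 and CCL24 at 75810825 to 75823372), both on the minus strand and 19228 bp apart. CCL11 lies on chromosome 17 at positions 34285742 to 34288334, within a cluster of other CC chemokine genes. No other RefSeq gene overlaps any of the 3. The bases just upstream of the main start site are shown for CCL26 and CCL24, because STAT6 favours a palindrome of the arms TTC and GAA with 4 unspecified bases between them, other STAT factors favour 3 bases (TTCNNNGAA), and these 2 neighbours differed in this spacing. Each stretch is 120 bases of hg38 on the minus strand, printed 5′ to 3′ and ending at the base before the start site, and capitals mark the match to either palindrome.
CCL26, chr7:75772212-75772331: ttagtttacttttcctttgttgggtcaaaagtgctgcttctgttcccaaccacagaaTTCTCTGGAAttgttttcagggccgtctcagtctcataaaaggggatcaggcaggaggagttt
CCL24, chr7:75813807-75813926: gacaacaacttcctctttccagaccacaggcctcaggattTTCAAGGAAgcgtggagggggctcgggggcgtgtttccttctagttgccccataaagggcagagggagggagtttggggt
The CCL26 match, TTCTCTGGAA, has 4 bases between its arms and begins 63 bases before the start site of the main transcript at position 75772211. The CCL24 match, TTCAAGGAA, has 3 bases between its arms and begins 80 bases before the start site at position 75813806. Both patterns, with their unspecified bases, read the same on either strand. Arms spaced by 4 bases occurred in 6.44% and TTCNNNGAA in 7.66% of 35116 RefSeq promoter windows of 300 bases. That table lists windows for CCL26 and CCL24, and the CCL24 match lies in one of them. Its window for CCL26, at another start site, held neither form, and the CCL26 match comes from the window of the main GENCODE transcript, which these shares do not cover. The windows at the other annotated start sites of both genes held neither form. A match describes the letters only and is not evidence of binding in these cells.

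The libraries held between 33342682 and 39817784 counts each. Libraries of the same batch deviated from their group means together, with a median correlation of 0.564 over 36 pairs of libraries against -0.133 over 180 pairs from different batches and groups. The vehicle library of batch 2 was an exception, since its mean correlation was 0.035 with its own batch and 0.427 with batch 4, and the vehicle library of batch 4 correlated better with batch 2 (0.402) than with its own batch (0.152). In batch 4, the library given TGF-β and the one given IL-4+IL-13 correlated best with batch 3. The cultures held the neuronal transcripts their label calls for: TUBB3 was at a level of 14.46 ± 0.78 and TRPV1 at 8.67 ± 0.12 in vehicle (SD, n = 6), where a level is log2(normalized count + 1). COL1A1, a fibroblast marker, was at 16.57 ± 0.83.

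CCL26 transcripts rose with IL-4+IL-13 in all 6 batches, from at most 5 counts a library to between 223 and 2047, and stayed at 0 to 7 counts with TGF-β and in the libraries labelled IL-6. The 6 vehicle libraries held 5, 4, 0, 3, 4 and 3 CCL26 counts in batches 1 to 6. The IL-4+IL-13 libraries held 223, 288, 966, 1427, 2047 and 390 counts in the same order. These ranges did not overlap, and the lowest IL-4+IL-13 library, that of batch 1, held more CCL26 counts than all other 18 libraries together, which summed to 19 in vehicle, 14 with TGF-β and 14 in the IL-6 libraries. Pooled over its 6 libraries, CCL26 was at 24.3 CPM, its count scaled to the total of the library, with IL-4+IL-13 (exact Poisson 95% interval 23.7 to 25) and 0.0853 with vehicle (0.0514 to 0.133). Intervals on counts cover counting error only.

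**Figure D1:**
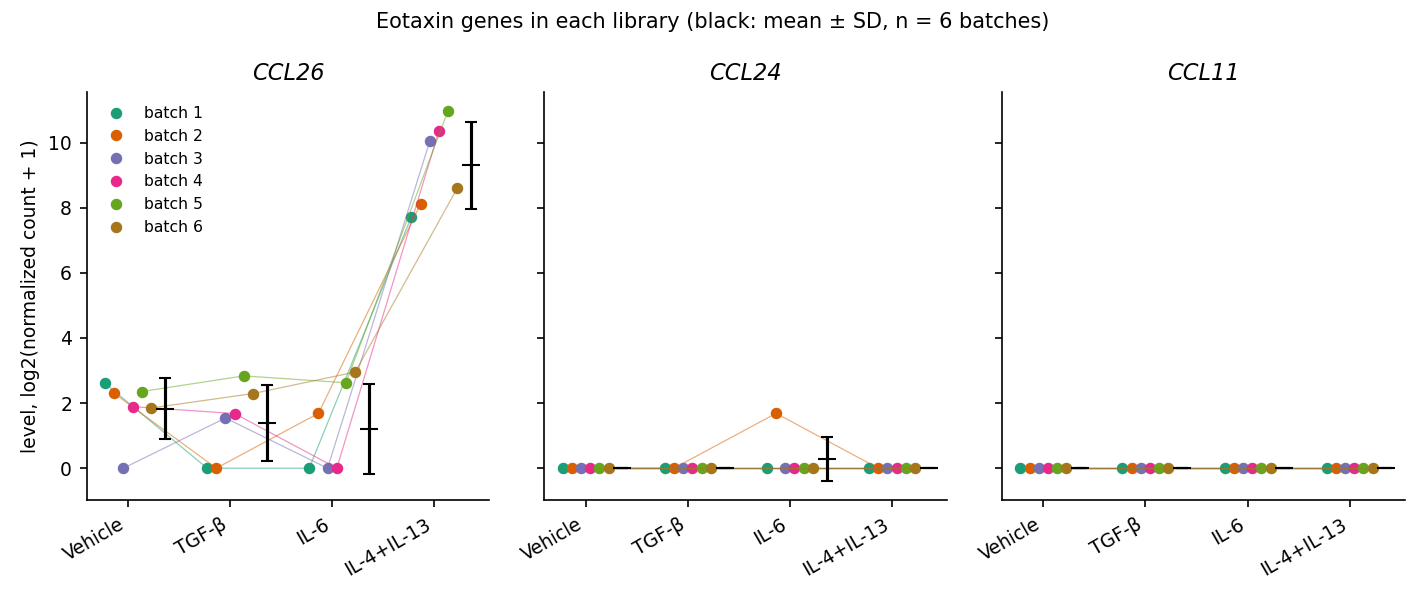
Level of each eotaxin gene, log2(normalized count + 1), in the 24 libraries by treatment, with 1 point per library coloured by batch, lines joining libraries of a batch, and the mean ± SD (n = 6) in black. CCL26 with IL-4+IL-13 lies between 7.72 and 10.99, above every other library, CCL24 leaves 0 in 1 IL-6 library, and CCL11 is at 0 throughout.

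In edgeR's quasi-likelihood test with batch in the model, fitted over all 29377 entries with a total count of at least 10, the CCL26 log2 fold change of IL-4+IL-13 over vehicle was 7.86 (SE 0.60, 95% interval 6.60 to 9.11, Benjamini-Hochberg adjusted p = 1.63e-06). A gene was called where this adjusted p was under 0.05 and the log2 fold change beyond 1. By these criteria 0.371% of entries were called in this comparison (67 higher and 42 lower), among which CCL26 had the second smallest p and the fifth highest log2 fold change of all entries tested. DESeq2 with the same model gave 7.85 (adjusted p = 2.33e-18). On the level scale the within-batch difference was 7.47 ± 1.88 (SD, n = 6 batches), higher in 6 of 6 batches. An exact two-sided sign-flip permutation test gave p = 0.0312, the smallest that 6 batches allow, and 0.0624 after Benjamini-Hochberg adjustment over the 6 pairs of treatments, which misses the threshold of 0.05. All batches stem from the 1 line, and the p-values set the treatment difference against its variation over batches of that line. In edgeR and DESeq2 this variation is what remains after the batch term, over all 4 groups.

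Expressed as a ratio of CPM within a batch, CCL26 was 43.7 times as high with IL-4+IL-13 as with vehicle in batch 1 (counting interval 18.4 to 136) and 71.2 times in batch 2 (27.5 to 263). The ratio was 453 (155 to 2200) in batch 4, 483 (188 to 1780) in batch 5 and 151 (51.3 to 736) in batch 6. In batch 3 the vehicle library held no CCL26 count. With a floor of 3 counts in its place the ratio was 346, and the lower limit of the counting interval was 281. The intervals of batches 1 and 5, which had the lowest and highest of these ratios, do not overlap. They take each count as 1 molecule and rest on 5 and 4 vehicle counts. Whether counting error covers the range between batches was therefore not settled. The pooled ratio was 285 (182 to 474).

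The same IL-4+IL-13 libraries stood above the TGF-β libraries, which held 0, 0, 2, 2, 6 and 4 CCL26 counts in batches 1 to 6. The log2 fold change was 8.35 (SE 0.62, 7.06 to 9.65, edgeR adjusted p = 5.09e-07), against 1.18% of entries called in that comparison, and the within-batch difference in level was 7.91 ± 0.85 (SD, n = 6). Against the IL-6 libraries, with 0, 2, 0, 0, 5 and 7 counts, it was 8.33 (SE 0.62, 7.03 to 9.63, edgeR adjusted p = 1.13e-06), against 0.279% of entries called, with a within-batch difference of 8.09 ± 1.89. CCL26 was higher with IL-4+IL-13 in 6 of 6 batches in both comparisons, with no overlap between groups. These comparisons share the IL-4+IL-13 libraries with the one against vehicle and are not separate evidence for its size.

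TGF-β and the IL-6 label left CCL26 within the spread of vehicle. The level was 1.83 ± 0.94 with vehicle, 1.39 ± 1.17 with TGF-β and 1.21 ± 1.39 in the IL-6 libraries (SD, n = 6), and 9.30 ± 1.33 with IL-4+IL-13. In this order of levels only the step to IL-4+IL-13 exceeded the spread, and the other 3 groups did not differ beyond it. The log2 fold change was -0.50 for TGF-β over vehicle (SE 0.89, -2.37 to 1.38, edgeR adjusted p = 0.974), higher in 3 batches and lower in 3. It was -0.48 for IL-6 over vehicle (SE 0.89, -2.35 to 1.39, edgeR adjusted p = 0.939) and -0.02 for TGF-β over IL-6 (SE 1.03, -2.18 to 2.14, edgeR adjusted p = 1). At 0 to 7 counts a library these intervals reach from -2.37 to 2.14, so changes within them were not detectable at this depth. Over all entries, 0.143% were called for TGF-β over vehicle and 0.0306% for TGF-β over IL-6. For IL-6 over vehicle edgeR called 0% of entries, with 1400 at an unadjusted p under 0.05, and DESeq2 called 155.

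**Figure D2:**
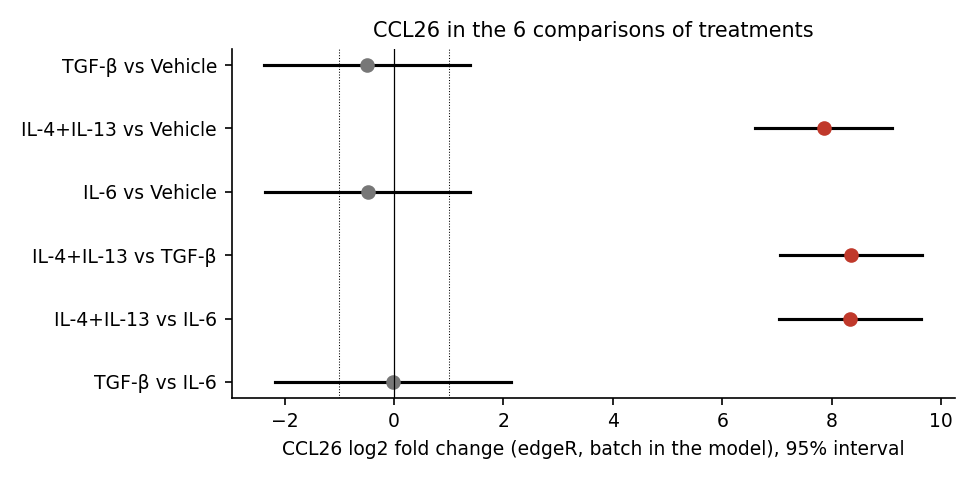
CCL26 log2 fold change in each of the 6 comparisons between treatments, with its 95% interval from edgeR's quasi-likelihood fit of 24 libraries. Red points were called and grey points were not, and dotted lines mark log2 fold changes of -1 and 1. The 3 comparisons with IL-4+IL-13 on the left side of the name lie between 7.86 and 8.35, and the other 3 intervals include 0.

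Per length of exon, CCL26 moved from the sparse end of the transcriptome to its upper part. Its exons span 703 bases, and its RPKM, which is CPM divided by the exon length in kilobases, was 0.122 ± 0.067 with vehicle, above 13% of 17419 genes, and 34.8 ± 28.7 with IL-4+IL-13, above 94.4% of them (SD, n = 6). On this scale ALOX15, the lipoxygenase that oxygenates arachidonic acid, was at 108 ± 34.9 with IL-4+IL-13 and CCL2, the chemokine for CCR2-bearing monocytes, at 74.1 ± 34.1. CCL26 thus stood below both in mean, although its SD reached into the range of CCL2.

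CCL24 and CCL11 were at or near 0 in every group. CCL24 held 2 counts in the IL-6 library of batch 2 and 0 in the other 23 libraries. CCL11 held 0 counts in all 24 libraries. Over the 6 IL-4+IL-13 libraries, 219658322 counts in all, the floor of 3 counts was 0.0137 CPM for each of the 2 genes and the exact Poisson 95% upper limit for a count of 0 was 0.0168 CPM, where CCL26 was at 24.3. In single libraries the floor of 3 counts ranged from 0.0753 to 0.09 CPM. Both genes fell under the total count of 10 and were not tested. Without that filter the adjusted p of CCL24 for IL-6 over vehicle was 0.965 in edgeR. The 2 counts need not be 2 molecules, since over all named genes and libraries the value 2 was listed more often (9791 times) than the value 1 (6246 times). So of the 3 eotaxins 1 was tested and called with IL-4+IL-13 and 2 could not be tested.

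The receptor through which eotaxins draw eosinophils was absent from the counts: CCR3 held 0 counts in all 24 libraries, with the same pooled floors as CCL11. Of 9 eotaxin receptors and scavengers, 6 were tested and 0 were called in any of the 6 comparisons. Between 0% and 1.18% of all entries were called in these, so a call among so few genes would be rare. The genes tested included ACKR1, which binds chemokines without signalling, at a log2 fold change of 0.21 for IL-4+IL-13 over vehicle (SE 0.23, edgeR adjusted p = 0.834). CX3CR1, another receptor of this list, held 246 counts over all libraries and was at 0.20 (SE 0.29, edgeR adjusted p = 0.887). DPP4, a protease that trims the amino-terminal end of CCL11, was at -0.86 (SE 0.33, edgeR adjusted p = 0.404). Of the 6 other CCR3 ligands 3 were tested and none was called, beside the same shares of all entries. CCL7 (MCP-3) had 0 to 39 counts and a log2 fold change of 1.67 (SE 0.83, -0.07 to 3.41, edgeR adjusted p = 0.573), higher in 5 of 6 batches. CCL8 was at 0 in every library, CCL13 held 4 counts in all and CCL5 6.

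The receptor chains, kinases and transcription factor upstream of CCL26 were mostly well covered before treatment. Of these 9 genes 1 was called for IL-4+IL-13 over vehicle, where 0.371% of all entries were called. IL13RA2, a high-affinity receptor that binds IL-13 without signalling through STAT6, rose with IL-4+IL-13 by a log2 fold change of 1.31 (SE 0.17, edgeR adjusted p = 0.00077), in 6 of 6 batches. In RPKM it was at 43.4 ± 51.1 with vehicle and 87.1 ± 71.2 with IL-4+IL-13, with batch 1 far above the rest, where counts were 9100 and 14592 against 781 to 2042 and 2333 to 4225 in the other batches. IL13RA1 had a log2 fold change of -0.28 (SE 0.10, edgeR adjusted p = 0.383) and IL4R, the chain shared by IL-4 and IL-13 signalling, of -0.41 (SE 0.22, edgeR adjusted p = 0.61). STAT6 was at -0.13 (SE 0.09, edgeR adjusted p = 0.69), with levels between 11.18 and 11.63 over the 6 IL-4+IL-13 libraries. IL2RG, the chain of the receptor on blood cells, held 53 counts over all 24 libraries. Over these 9 genes the median log2 fold change was -0.14, beside -0.008 over all entries.

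Among 30 genes known to respond to IL-4 or IL-13 elsewhere, 26 were tested, 8 rose with IL-4+IL-13 over vehicle and 0 fell, where 0.371% of all entries were called, with a median log2 fold change of 0.60 beside -0.008 over all entries. Like the other lists, this one was chosen with earlier results of these data known, so these counts describe the list and are not independent evidence. ALOX15 rose most, from 4, 3, 10, 21, 15 and 0 counts in the vehicle libraries to 15875, 4679, 14524, 16617, 14739 and 13505, a log2 fold change of 10.58 (SE 0.43, edgeR adjusted p = 1.28e-10). It was the only gene of this list with a higher log2 fold change than CCL26. SLC26A4, the anion exchanger pendrin, rose by 4.76 (SE 0.54, edgeR adjusted p = 8.71e-05). CISH, a SOCS family inhibitor of cytokine receptors that STAT factors induce, rose by 4.40 (SE 0.38, edgeR adjusted p = 7.07e-06), from 28 to 75 counts a library to 420 to 1251. The protease inhibitors SERPINB4 and SERPINB3 rose by 2.98 and 2.60, TNFAIP6, a hyaluronan-binding protein, by 2.94, and IL13RA2 by the value above. VCAM1, the adhesion molecule that eosinophils bind through the integrin VLA-4, rose by 1.93 (SE 0.35, edgeR adjusted p = 0.00855), in 6 of 6 batches.

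Other members of this list did not pass in edgeR. SOCS1, a further feedback inhibitor, had a log2 fold change of 0.58 (SE 0.18, edgeR adjusted p = 0.249), and POSTN (periostin) of 1.52 (SE 0.45, edgeR adjusted p = 0.224), higher in 5 of 6 batches. DESeq2 called POSTN (1.51, adjusted p = 0.0316) and MUC5AC, a mucin with 27 counts in all that was higher in 1 batch (DESeq2 adjusted p = 0.000317, edgeR 0.637). CCL17 held 16 counts over all libraries, and CCL22, CD209 and CLCA1 held none. Of the type 2 chemokines in the list and among the eotaxins, CCL26 was called and CCL17 was tested but not called. CCL24, CCL11 and CCL22 had too few counts to be tested. Against TGF-β 8 of the 26 rose and 0 fell, where 1.18% of all entries were called, and against IL-6 7 rose and 0 fell, where 0.279% were. In edgeR 0 were called for TGF-β or IL-6 over vehicle, while DESeq2 called TNFAIP6 for TGF-β over vehicle (log2 fold change 1.58, DESeq2 adjusted p = 0.0222, edgeR 0.22), higher in 5 of 6 batches.

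**Figure D3:**
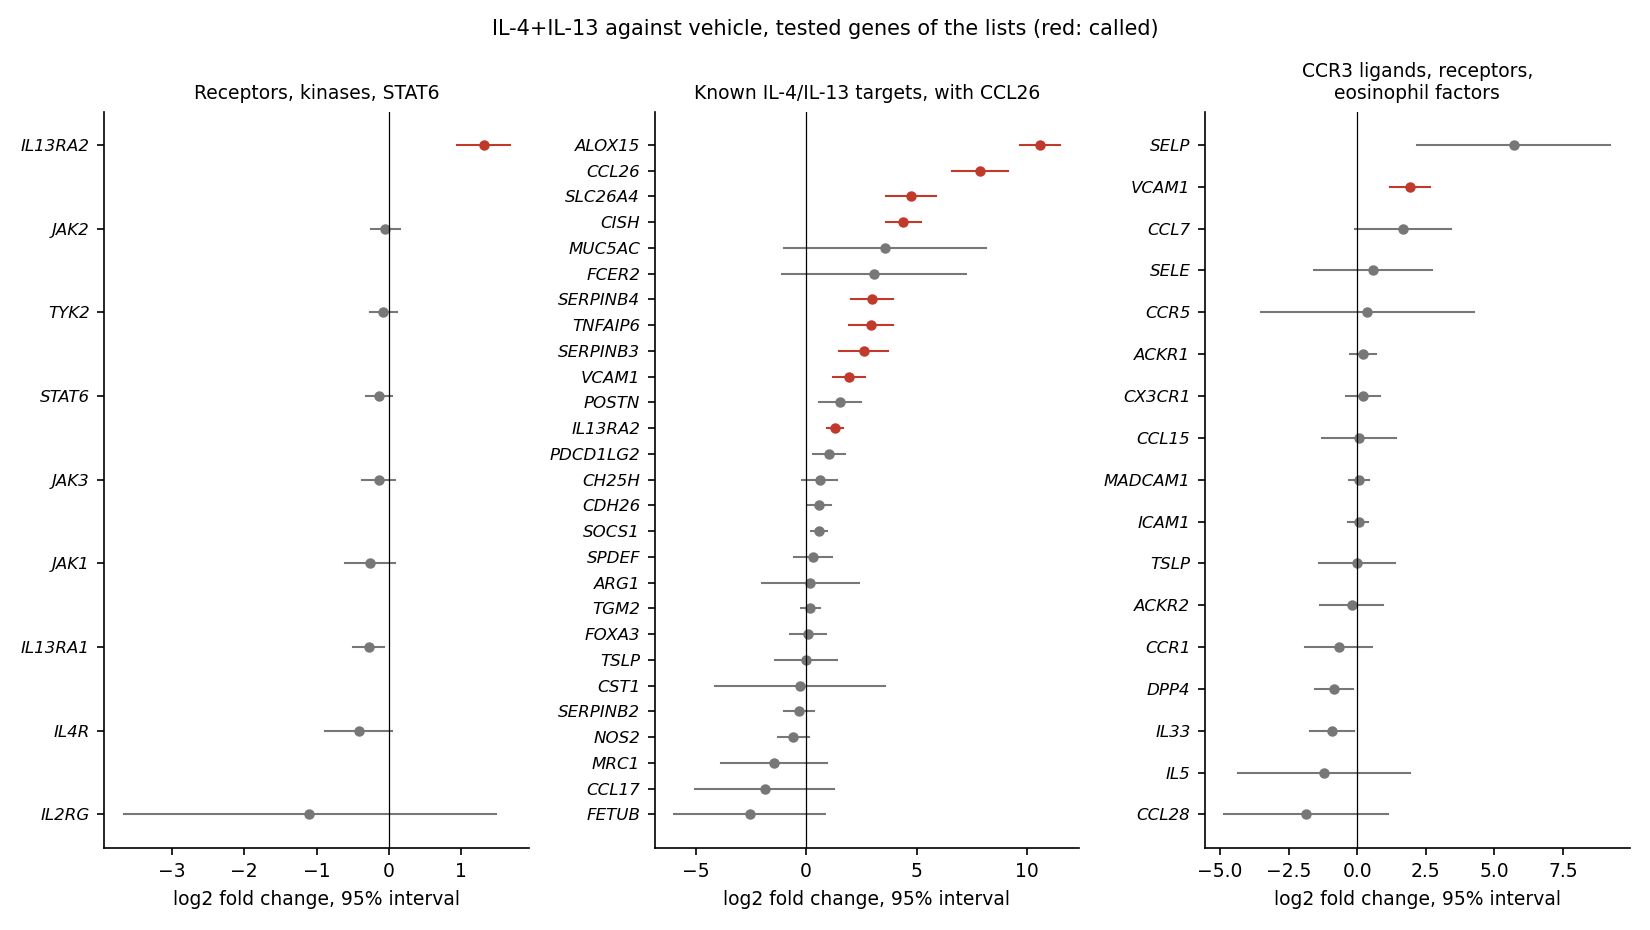
Log2 fold change of IL-4+IL-13 over vehicle with its 95% interval (edgeR) for the tested genes of the fixed lists, with CCL26 added to the known targets. Red genes were called. ALOX15 at 10.58 and CCL26 at 7.86 lead the targets, IL13RA2 at 1.31 is the one receptor gene called, and VCAM1 at 1.93 the one called in the right panel.

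Factors that support eosinophils were mostly sparse in these cultures. Of 11 genes for eosinophil growth, survival and adhesion 8 were tested and 1, VCAM1, rose with IL-4+IL-13 over vehicle, where 0.371% of all entries were called. IL5, which drives eosinophil maturation, held 22 counts over all libraries, and CSF2 none. IL33, an alarmin, had a log2 fold change of -0.92 (SE 0.38, edgeR adjusted p = 0.469), lower in 6 of 6 batches. SELP (P-selectin) was at 0 in all vehicle libraries and at a level of 2.31 ± 1.86 with IL-4+IL-13, with 48 counts in all 24. Its log2 fold change was 5.71 (SE 1.49, 2.19 to 9.23, edgeR adjusted p = 0.276), higher in 4 batches and lower in 0. Of 8 eosinophil and mast cell markers SIGLEC8, CLC and CCR3 were at 0 in all libraries, and the summed level of the list ran from 7.85 to 11.29 with IL-4+IL-13 and from 8.34 to 10.63 with vehicle, most of it from KIT.

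Markers of cell types that these cultures could hold were read in the same fit as CCL26. Of 8 neuron markers 0 were called for IL-4+IL-13 over vehicle, and their summed level ranged from 16.42 to 18.18 and from 15.77 to 18.30. Of 6 epithelial markers CDH1, the adhesion protein E-cadherin, fell by 1.89 on the log2 scale (SE 0.34, edgeR adjusted p = 0.00957). KRT5, with 73 counts over all libraries, went the other way at 2.46 (SE 1.01, edgeR adjusted p = 0.458), higher in 6 of 6 batches. EPCAM, KRT8, KRT18 and KRT19 lay between -0.24 and -0.10. The list's summed level ranged from 12.97 to 14.26 and from 13.30 to 14.98. None of 8 fibroblast, 6 smooth muscle, 6 glia, 6 endothelial or 7 leukocyte markers was called in this comparison, where 0.371% of all entries were called. The summed fibroblast level ranged from 16.54 to 17.79 with IL-4+IL-13 and from 16.82 to 18.54 with vehicle. Within batches it was lower with IL-4+IL-13 except in batch 4, at 17.79 against 17.54. The median log2 fold change of this list was -0.25, and COL1A1 was at -0.93 (SE 0.26, edgeR adjusted p = 0.168, DESeq2 0.0177), lower in 5 of 6 batches. The summed endothelial level was 12.61, 11.32, 11.20, 11.90, 12.25 and 11.57 with IL-4+IL-13 in batches 1 to 6 and 12.13, 10.75, 9.91, 10.53, 11.66 and 11.48 with vehicle. It was thus higher with IL-4+IL-13 within each batch, although the groups overlapped. Most of this sum came from KDR, with 49558 counts over all libraries beside 7697 for CLDN5, the next. Of its 6 genes CLDN5, a tight junction protein, had the highest log2 fold change at 1.27 (SE 0.55, edgeR adjusted p = 0.496, DESeq2 0.215), and none was at 0 in all libraries. CDH5 was at 0.71, KDR at 0.47 and VWF at 0.13, while PECAM1 was at -0.30 and TEK at -0.41. The part of these cells in the CCL26 rise was not tested, nor was which cell type carried its transcripts.

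No neighbour of CCL26 on chromosome 7 was called with it for IL-4+IL-13 over vehicle. Since 0.371% of all entries were called there, a call among so few genes would be rare. The 5 protein-coding genes on either side were read in the same fit: HIP1, 30583 bp away on one side, had a log2 fold change of -0.05 (SE 0.07) for IL-4+IL-13 over vehicle, and RHBDD2, the next gene beyond CCL24, of 0.05 (SE 0.07). Of the 10 neighbours of CCL26, CCL24 was the one not tested, and the other 9 had log2 fold changes between -0.09 and 0.11 with none called. CCL24, the nearest gene, held no count in the library in which CCL26 reached 2047. SPDYE15, SPDYE5, TRIM73 and POM121C belong to families with near-identical copies on this chromosome, and their counts are uncertain for that reason. MDH2, the fifth gene beyond CCL24, was at 0.03 (SE 0.06).

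Around CCL11 the neighbouring chemokine genes were unequal. CCL2 held 1589 to 9736 counts a library and had a log2 fold change of 0.58 for IL-4+IL-13 over vehicle (SE 0.17, 0.22 to 0.94, edgeR adjusted p = 0.209, DESeq2 0.0595), higher in 5 of 6 batches. CCL7, 13500 bp from CCL11, is given above, CCL8 was at 0, and CCL1 held 20 counts in all. Of the 10 neighbours of CCL11 none was called, beside 0.371% of all entries, and CCL8, CCL13 and SPACA3 were not tested.

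**Figure D4:**
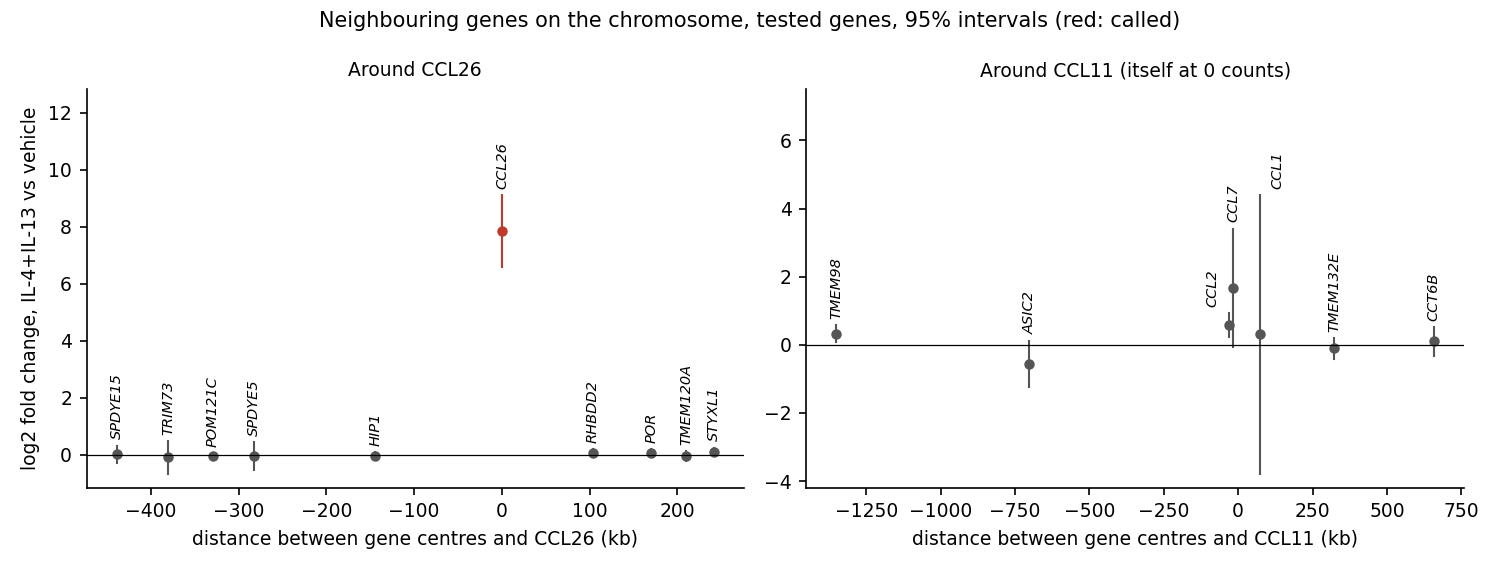
Log2 fold change of IL-4+IL-13 over vehicle (95% interval, edgeR) of the tested genes around CCL26 (left) and CCL11 (right), placed by the distance in kb between gene centres. CCL26 is at 7.86 and its tested neighbours lie between -0.09 and 0.11, while CCL11 and CCL24 had too few counts to be tested.

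The genes whose pattern was most like that of CCL26 were found by Pearson correlation of levels, each taken as the deviation from its batch mean, over 24 libraries and 16909 genes with a mean count of at least 10. This is a description, and libraries of 1 treatment share that treatment. CD44, the hyaluronan receptor, had r = 0.956 and rose with IL-4+IL-13 by a log2 fold change of 1.69 (edgeR adjusted p = 8.94e-06). CSN1S1, a casein gene, had r = 0.956, with no count in any vehicle library and a level of 7.06 ± 2.44 with IL-4+IL-13 (edgeR adjusted p = 0.00788). MME, the peptidase neprilysin, followed with r = 0.948 and a log2 fold change of 4.33 (edgeR adjusted p = 0.000214), then ALOX15 with r = 0.946 and NABP1, a single-stranded DNA binding protein, with r = 0.937 and 1.5 (edgeR adjusted p = 4.12e-05). These 5 genes were higher with IL-4+IL-13 than with vehicle in 6 of 6 batches. As they were chosen for likeness to CCL26 in the same libraries, this rise and their adjusted p follow from the choice and are not separate evidence. CSN1S1 also met the minimum mean count without any vehicle count.

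Within the IL-4+IL-13 group CCL26 differed widely between batches. Its level was 7.72, 8.11, 10.04, 10.36, 10.99 and 8.60 in batches 1 to 6, so that batches 3, 4 and 5 were high and batches 1, 2 and 6 low, with a 9.66-fold range of normalized counts. ALOX15 spread over a 3.52-fold range in the same libraries, with levels of 13.87, 12.13, 13.95, 13.90, 13.83 and 13.71. CISH spread over a 2.92-fold range, at 10.20, 8.66, 9.99, 9.96, 10.17 and 9.91. Both were lowest in batch 2 and near their highest in batch 1, where CCL26 was at its lowest. VCAM1, at 7.14, 7.63, 9.22, 9.30, 8.30 and 7.02, and POSTN, at 12.62, 12.28, 15.43, 15.30, 14.45 and 12.51, were like CCL26 higher in batches 3, 4 and 5 than in the other 3. STAT6 spread over a 1.36-fold range.

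Summed levels of cell type markers also differed between these batches. The summed neuron marker level with IL-4+IL-13 was 16.42, 17.36, 18.18, 18.08, 17.45 and 16.72 in batches 1 to 6, and each of batches 3, 4 and 5 was above each of the others. The same order held with TGF-β and in the IL-6 libraries. With vehicle it did not hold, since batch 2 at 17.97 was above batch 4 at 17.75 and batch 5 at 17.45. That vehicle library of batch 2 was the one with a mean correlation of 0.035 with its own batch. The summed fibroblast marker level was 17.41, 17.03, 17.26, 17.79, 17.65 and 16.54, with batch 1 above batch 3. The part of cell mixture in the CCL26 spread was not tested. IL4R was at 10.55, 9.11, 10.57, 10.63, 10.22 and 9.70, with batch 1 beside batches 3 and 4.

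**Figure D5:**
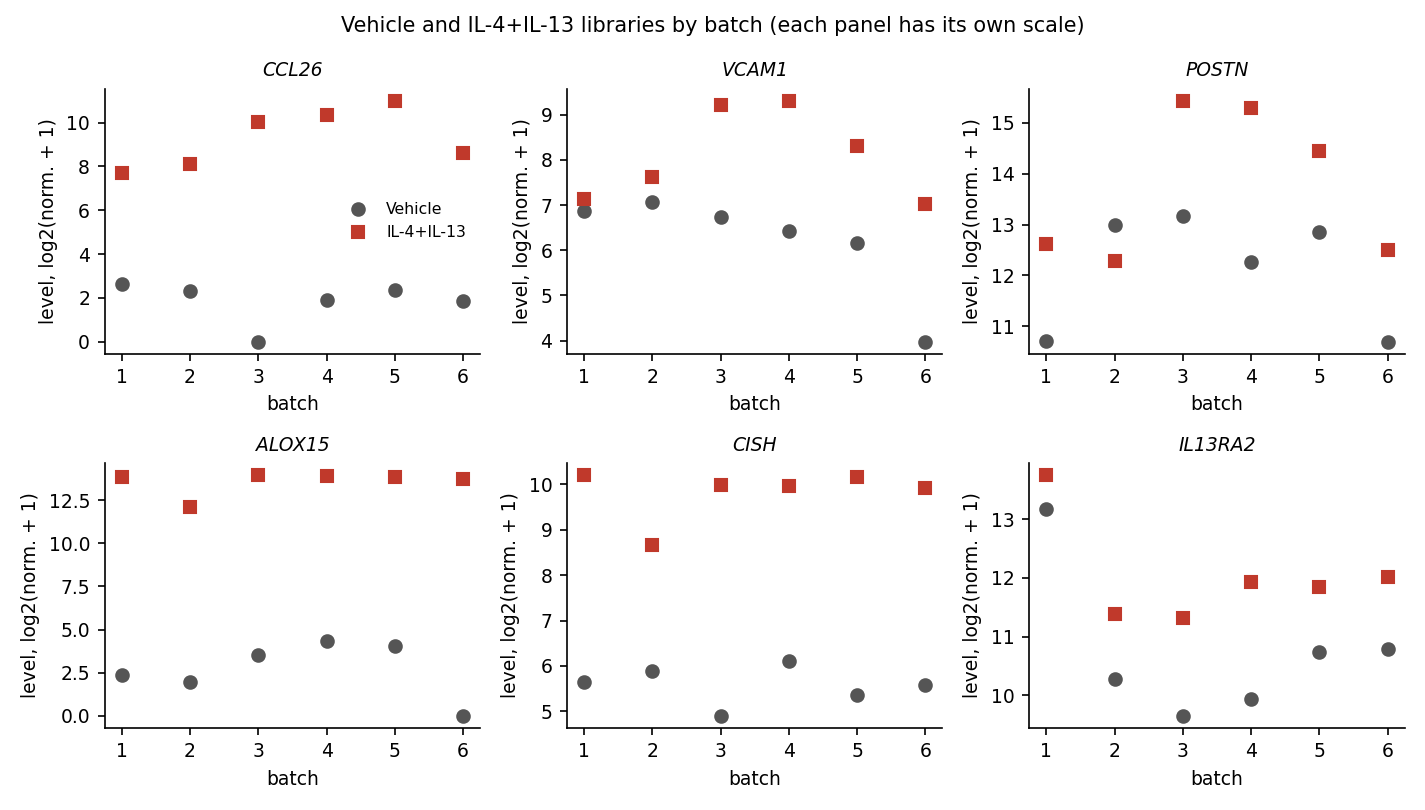
Levels, log2(normalized count + 1), of 6 genes in the vehicle (grey circles) and IL-4+IL-13 (red squares) library of each batch, with a scale of its own in each panel. CCL26, VCAM1 and POSTN with IL-4+IL-13 are highest in batches 3, 4 and 5, whereas ALOX15 and CISH are lowest in batch 2.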

How the data were processed

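Polyadenylated RNA was sequenced by a provider on an Illumina instrument. Per the labels, the authors trimmed adapters with Trimmomatic 0.30, aligned reads to GRCh38.p14 and deposited raw read counts per gene entry. The aligner, counting tool and strandedness are not given in the sources used here, and nothing states whether read mates were counted separately. Of 36468 entries, 13161 were unnamed loci.

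Of all entries, 29377 reached a total of 10 counts and were fitted with edgeR 4.0.16 (R 4.3.3) by quasi-likelihood with TMM scaling and the model of batch plus treatment, over all 24 libraries, and p-values were adjusted by Benjamini-Hochberg over all entries. The study's methods name DESeq2 with this model and this filter, and DESeq2 1.42.0 was run as an alternative. Scripts were tested on simulated data. Levels are log2(normalized count + 1) with DESeq2 size factors (0.897 to 1.15), and intervals are at 95%. RPKM used union exon lengths from GENCODE 44. Libraries were paired by the batch number in the labels, and 33 of 36 same-batch pairs correlated above 0.1.

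The eotaxins and gene lists were chosen with earlier results of these data known. The named genes were up to 5 called genes per list by size, genes whose role bears on eotaxins, 5 neighbours on each side, and the 5 genes most like CCL26. Other genes are named for a role or a low count after their values were seen. For the 7 of 127 listed symbols with several entries, the entry bearing the plain symbol was used. Alternatives were another scaling, other filters, no batch term, fewer libraries, first entries per symbol, and leaving out each batch. The results of 1 list of cell type markers are not reported here.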

Additional observations from a re-analysis of the deposited data

Results flagged for a closer look

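In the 5 groups in which an eotaxin varied, 2 libraries stood apart from the other 5 of their group by Dixon's criterion. Its rate of about 1 in 20 groups holds for normally distributed values and not for counts this low. A group with 1 library above 0 always meets it. The vehicle library of batch 3 had a CCL26 level of 0, where the other vehicle libraries held 3 to 5 counts, and its gap to the nearest was 0.709 of the group's range. The IL-6 library of batch 2 had a CCL24 level of 1.69 from 2 counts, where the others were at 0, so the gap was 1, the whole range. Both rest on differences of 2 or 3 counts.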

How the results depend on the processing

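CCL26 was called for IL-4+IL-13 over vehicle under all 15 alternatives (log2 fold change 7.46 to 8.35, highest adjusted p 0.000399), over TGF-β under all 15 (8.16 to 8.77, 0.000105) and over IL-6 under all 13 (7.87 to 9.25, 0.000158). Its mean within-batch difference was 4.13 over vehicle, 4.15 over TGF-β and 4.16 over IL-6 on log2(CPM + 1), where the pseudocount of 1 exceeds the CPM of the other groups. The uncalled differences near 0 changed sign: TGF-β over IL-6 was 0.04 by DESeq2, 0.02 with no replicate block and -0.29 to 0.48 leaving out single batches or the vehicle library of batch 2, TGF-β over vehicle was 0.01 in 15 libraries of batches 2 to 6, and IL-6 over vehicle ran from -1.29 to 0.03 leaving out single batches. With no replicate block, CCL26 stayed called (8.10 over vehicle, 8.45 over TGF-β, 8.47 over IL-6), while calls over all entries dropped from 109 to 13, 347 to 49 and 82 to 13, and from 42 to 0 for TGF-β over vehicle and 9 to 0 for TGF-β over IL-6. The cause of these shifts was not tested. Other counts of calls that moved over 1.5 times were those of DESeq2 (252 for TGF-β over vehicle, 155 for IL-6 over vehicle, 299 for IL-4+IL-13 over vehicle, 623 for IL-4+IL-13 over TGF-β, 236 for it over IL-6 and 248 for TGF-β over IL-6), those without the IL-6 libraries (6 calls for TGF-β and 72 for IL-4+IL-13, each over vehicle), those in the 15 libraries (4 and 28, and 200 for IL-4+IL-13 over TGF-β), 17 for TGF-β over IL-6 under a mean-count minimum of 10, and 37 there without the vehicle library of batch 2. Leaving out single batches gave 1 to 40 calls (TGF-β over vehicle), 60 to 122 (IL-4+IL-13 over vehicle), 196 to 444 (over TGF-β), 52 to 109 (over IL-6) and 0 to 22 (TGF-β over IL-6), each lowest without batch 3 or batch 5. Leaving out that vehicle library was chosen after seeing the data. At 0 to 7 counts, differences in CCL26 among the other 3 groups are limited by depth.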
